A study of Mus musculus with 9 samples.

Results

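The genes described here are NRF2 and the antioxidant genes around it: Nfe2l2, which encodes the transcription factor NRF2, its inhibitor Keap1, and genes of glutathione, thioredoxin, NADPH, conjugation and superoxide metabolism. They were chosen by name, 34 of the 24062 genes in the count table, and all 34 passed the filter on low counts that left 15369 genes. They were measured by RNA sequencing in mouse embryonic fibroblasts of the C57BL/6 strain, cells grown out of embryos, which gamma rays had made senescent. All groups share the irradiation and, from day 10 after it, a lentivirus that delivered a short hairpin RNA. The groups carried shRela-1 or shRela-2, 2 independent hairpins against Rela, which encodes the NF-kB subunit p65, or the scrambled hairpin shScr, with 3 samples each. The changes given here are therefore those seen with a Rela hairpin in cells that were already irradiated, and unirradiated cells were not analysed here. Whether they come from lowering Rela or from other effects of a hairpin was not tested.

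NRF2 is a transcription factor that is made all the time and destroyed all the time. Keap1 holds it in the cytoplasm and hands it to a ubiquitin ligase. Oxidants and electrophiles modify cysteines of Keap1, and NRF2 then escapes, enters the nucleus, pairs with a small Maf protein and switches on genes that carry an antioxidant response element. Bach1 binds the same elements as a repressor. The genes that NRF2 is known to switch on make glutathione, recycle oxidised thioredoxin and peroxiredoxin, supply NADPH for both, and conjugate and export reactive compounds. Most control of NRF2 acts on the protein, so RNA levels of Nfe2l2 do not measure its activity.

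The antioxidant response element core, TGACNNNGC on either strand, was searched for in the RefSeq promoter windows of the mouse build GRCm38.p6, which run from 250 bases before to 50 bases after each start. Windows were found for 29 of the 34 genes, and 12 of these held the core, in 13 of 40 windows. Of all 32851 promoter windows of the same length, 12.4% held it, or 14% of genes. All 11 matches of the 9 genes among these that were called against shScr are printed here 5′ to 3′ on the gene's strand. They have 10 bases on either side and the core in capitals, and are shown because NRF2 switches on genes that carry this element. Where the core lies on the other strand, the capitals read GCNNNGTCA.
Nfe2l2: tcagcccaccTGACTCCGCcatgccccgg
Gclm: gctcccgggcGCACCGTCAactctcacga
Srxn1: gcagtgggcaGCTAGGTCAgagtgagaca
Me1: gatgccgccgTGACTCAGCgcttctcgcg
G6pdx: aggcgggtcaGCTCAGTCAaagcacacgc
Ugdh: gcggagcccgTGACTTAGCtggagctgat
Ugdh, second match: tcctcaagggGCGTGGTCAtacagttcgg
Mgst1: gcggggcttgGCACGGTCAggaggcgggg
Abcc4: gccccgagagGCGGGGTCAgggcgggccg
Abcc4, second match: aataatctcgTGACTCTGCcgtggtggat
Sod1: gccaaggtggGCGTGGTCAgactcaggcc
The windows lie at chr2:75704885-75704913 (minus strand) for Nfe2l2, chr3:122245413-122245441 (plus strand) for Gclm, chr2:152105542-152105570 (plus strand) for Srxn1, chr9:86695902-86695930 (minus strand) for Me1 and chrX:74428919-74428947 (minus strand) for G6pdx. Those of the others are chr5:65435956-65435984 (minus strand) and chr5:65435918-65435946 (minus strand) for Ugdh, chr6:138140461-138140489 (plus strand) for Mgst1, chr14:118706226-118706254 (minus strand) and chr14:118676936-118676964 (minus strand) for Abcc4 and chr16:90220696-90220724 (plus strand) for Sod1. The core began 240 bases before the start of Nfe2l2, 134 before that of Gclm, 132 and 94 before that of Ugdh, 57 before that of G6pdx, 56 before those of Mgst1 and Sod1, and 25 and 23 before different starts of Abcc4. In Me1 it spanned the start, and in Srxn1 it began 28 bases after it. The core of Me1 contains TGACTCA, which are also the letters of the AP-1 site. The NF-kB consensus, searched in the same windows on both strands, was held by 5 of the 29 genes, Cat, Gpx1, Prdx1, Sod2 and Sqstm1, beside 9.55% of all genes. It was in 5 of the 40 windows, beside 8.46% of all windows. Prdx1 alone held both motifs, the consensus beginning 170 bases before its start and the antioxidant core 133 before it. The windows of Sod2, a known target of NF-kB, and of the regulator Sqstm1 are given with the consensus in capitals.
Sod2: cggggcggacGGGGTTCCCCgaggcggggc
Sqstm1: cccacgaggcGGGGCTCCCCcgttttctat
These lie at chr17:13007746-13007775 (plus strand) for Sod2, 83 bases before the start, and at chr11:50210819-50210848 (minus strand) for Sqstm1, 18 bases before it. A match describes letters and does not show that a factor binds there. Bases outside the windows were not searched, so a gene without a match may still carry an element elsewhere.

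The samples were deeply sequenced, with 49774667 to 67963506 counts each. Rela, the target, fell to between 15.5% and 17.3% of the shScr mean in all 6 knockdown samples. Replicates of a group differed beyond sampling noise in all pairs, and among the shScr samples replicate 2 stood apart from the others. Nothing in the labels says that replicates came from separate cultures, so p-values measure only how these samples differ, and that spread may be technical. The shScr titles alone carry a dataset tag, so a batch that goes with the tag and the effect of a hairpin cannot be told apart. Fibroblast markers summed to 63130 to 66530 CPM (counts per 1000000 counts in the tested genes) with shRela-1, 55720 to 58700 with shRela-2 and 56680 to 62890 with shScr, and all 12 were detected. Markers of macrophages and blood cells summed to 406 to 540 CPM with shRela-1, 351 to 539 with shRela-2 and 413 to 598 with shScr, with Hbb-bs and Hba-a1 at 0. Epithelial markers summed to 28.0 to 40.5 CPM with shRela-1, 19.4 to 24.3 with shRela-2 and 19.3 to 25.2 with shScr, and endothelial markers to at most 6.49 CPM.

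Some of these markers changed between the groups. Of 12 fibroblast markers tested, Col3a1, Thy1 and Lum rose and Pdgfrb fell with shRela-1, and Vim, which encodes vimentin, changed with shRela-2 by -0.39 ± 0.0394 (log2 fold change ± SE; edgeR, adjusted p = 5.52e-05). A fit with the replicate number as a block called 8 rises and 3 falls with shRela-1, against 0 rises and 5 falls for shRela-2. Between the hairpins 1 was higher and 5 lower with shRela-2, or 10 lower with the block. Of all 15369 genes, edgeR called 24.7% with shRela-1, 30.9% with shRela-2 and 39.9% between the hairpins. With the block it called 6034, 6830 and 7974 genes. Of 11 macrophage and blood cell markers tested, Itgam was the one called, with -0.54 ± 0.147 for shRela-2 against shScr (edgeR, adjusted p = 0.0171) and -0.48 ± 0.147 for shRela-2 against shRela-1 (edgeR, adjusted p = 0.0248). With the block 7 of the 11 fell with shRela-2 against shScr and 7 against shRela-1. Of 7 epithelial markers tested, Krt19 rose with shRela-1, and Krt18 and Krt19 were lower with shRela-2 than with shRela-1. Their part in the results below was not tested. A change is called here where edgeR's adjusted p was under 0.05.

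Some of the antioxidant genes rose and others fell with each hairpin, and 1 was called the same way with both. With shRela-1, 8 of the 34 rose and 4 fell against shScr. With shRela-2, 4 rose and 8 fell. A gene is said to rise or fall where edgeR's quasi-likelihood test gave an adjusted p under 0.05 after Benjamini-Hochberg adjustment over all 15369 genes. That test called 24.7% of all genes with shRela-1 and 30.9% with shRela-2, against 35.3% of the 34 with each hairpin. Of all genes, 12.3% rose and 12.4% fell with shRela-1, and 15.4% rose and 15.4% fell with shRela-2. All samples of a hairpin lay on 1 side of all shScr samples for 16 of the 34 with shRela-1 (12 above and 4 below) and for 16 with shRela-2 (7 above and 9 below). Among all genes this held for 39.6% with shRela-1 (20.1% above and 19.5% below) and 44.1% with shRela-2 (22.5% above and 21.6% below). The median log2 fold change of the 34 was 0.0813 with shRela-1 and -0.0348 with shRela-2, beside 0.0026 and -0.002 for all genes. In bulk RNA, fewer cells of a type and less RNA per cell cannot be told apart.

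Gss, which encodes glutathione synthetase, was the single gene of the 34 that was called the same way with both hairpins, and it fell. That is 2.94% of the 34, beside 6.96% of all genes called the same way with both (4.12% as rises and 2.84% as falls). Nfe2l2 and Keap1 were called with both hairpins in opposite directions, as were 5.08% of all genes. Tkt and Mgst1 fell with shRela-1 alone among the calls, and Sqstm1, Gclm, Gpx4, Srxn1, Taldo1, Gstm1 and Abcc1 rose with it alone. Slc7a11, Txn1, Prdx6, G6pdx, Me1 and Ugdh were called as falling with shRela-2 alone, and Gsr, Abcc4 and Sod1 as rising. The other 13 genes were called with neither hairpin. Both comparisons share the 3 shScr samples. Same-numbered samples of the 3 groups varied together, and a fit with the replicate number as a block called 15 rises and 5 falls with shRela-1. Where that block changed the call of a gene, its adjusted p is given below, followed in square brackets by the range over all settings tried. Without shRela-1 replicate 1, shScr replicate 2 or shScr replicate 3, in contrast, 7 genes were called with shRela-1, of which 4 rose. The number of all genes called with shRela-1 also dropped, from 3799 to 3219 without shRela-1 replicate 1 and to 2745 without shScr replicate 3.

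**Figure D1:**
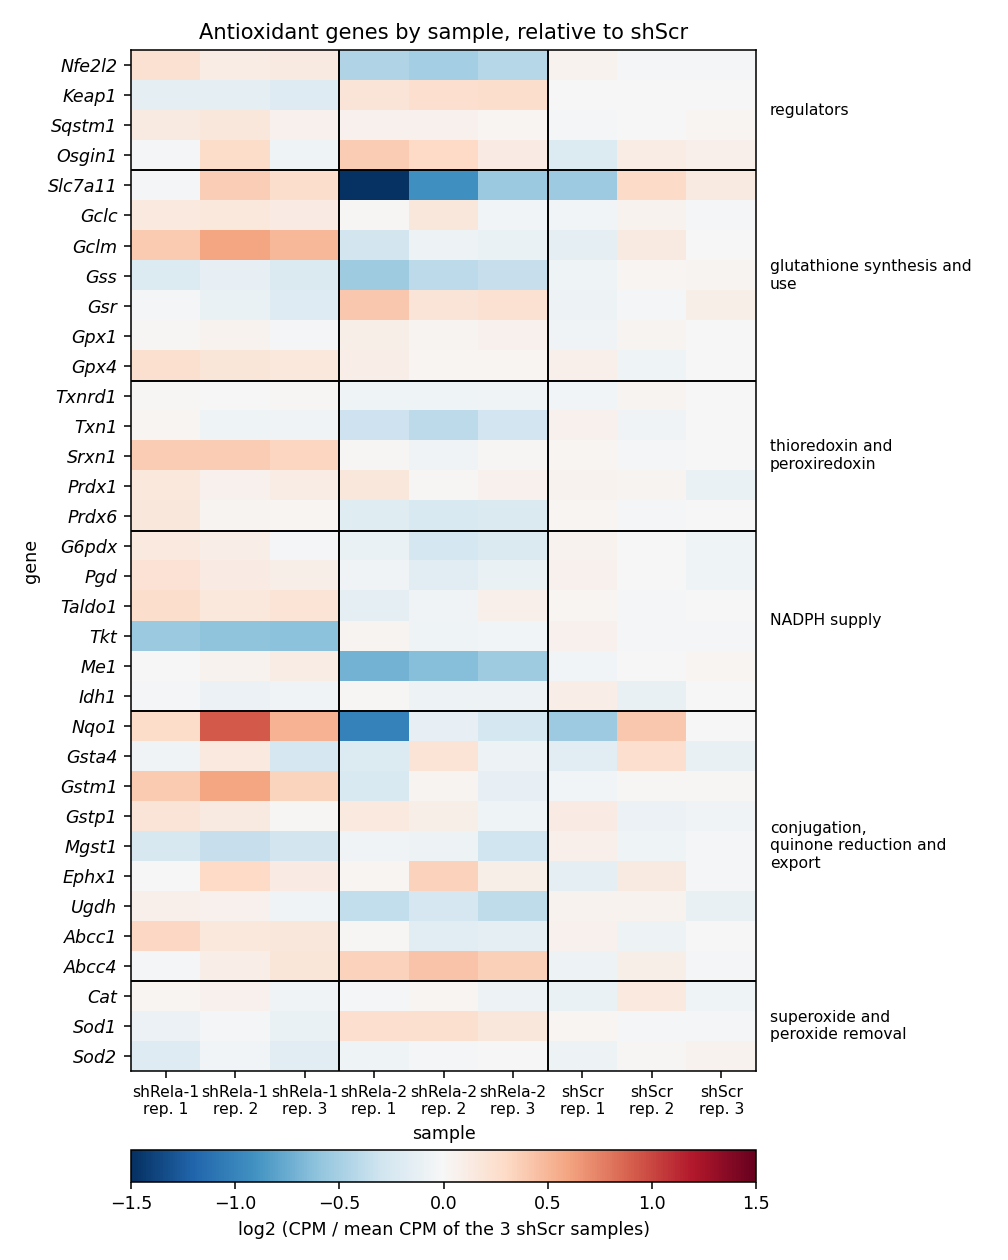
Level of each of the 34 genes in each of the 9 samples (columns) as the log2 ratio to the mean of the shScr samples, with genes in rows ordered by role; red is above and blue below that mean. The Me1 and Slc7a11 rows are blue in the shRela-2 columns and the Tkt row is blue in the shRela-1 columns, while Nqo1 also differs between replicate numbers within each group.

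Nfe2l2 and Keap1 moved in opposite directions with each hairpin, and the hairpins moved them in opposite directions. Nfe2l2 (chr2:75675513-75704641, minus strand in mm10) stood at 118, 109 and 109.8 CPM in the shRela-1 samples, 73.2, 70.4 and 74.3 CPM in the shRela-2 samples and 104, 97.9 and 98.6 CPM in the shScr samples. The shRela-1 samples were all above the controls and the shRela-2 samples all below them. It rose with shRela-1 by 0.16 ± 0.0430 and changed with shRela-2 by -0.46 ± 0.0433 (log2 fold change ± SE, here and below; edgeR's quasi-likelihood test, adjusted p = 0.0192 and 3.1e-05). The small rise with shRela-1 depended on single libraries, with an adjusted p of 0.0676 without shRela-1 replicate 1, 0.0724 without shScr replicate 2 and 0.0735 without shScr replicate 3 (edgeR). Keap1 (chr9:21229730-21239361, minus strand), whose product marks NRF2 for destruction, stood at 53.2, 53.0 and 51.2 CPM with shRela-1, 67.1, 69.9 and 70.2 CPM with shRela-2 and 59.0, 58.5 and 58.5 CPM with shScr. Here shRela-1 was below the controls in all samples and shRela-2 above them. Keap1 changed by -0.16 ± 0.0325 under shRela-1, and under shRela-2 by 0.24 ± 0.0324 (edgeR, adjusted p = 0.00469 and 0.000367). Of its exon bases, 10.9% overlap Gm16754 on the opposite strand, and the library kit does not mark strand. The difference between hairpins, shRela-2 minus shRela-1, was -0.63 ± 0.0433 for Nfe2l2 and 0.40 ± 0.0324 for Keap1 (edgeR, adjusted p = 1.52e-06 and 4.99e-06).

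Sqstm1 and Osgin1 complete the regulators among the 34, and of these Sqstm1 was called, with shRela-1. Sqstm1 encodes p62, an autophagy receptor that can bind and sequester Keap1. It stood at 552, 565 and 526 CPM with shRela-1, 526, 527 and 513 CPM with shRela-2 and 492, 502 and 512 CPM with shScr. Both knockdown groups were above all controls, and the call with shRela-1 was 0.12 ± 0.0381 (edgeR, adjusted p = 0.0363). That call had an adjusted p of 0.0887 without shRela-1 replicate 1, 0.127 without shRela-1 replicate 2, 0.0537 without shRela-2 replicate 2, 0.106 without shScr replicate 1, 0.0923 without shScr replicate 2 and 0.0619 without shScr replicate 3 (edgeR). With shRela-2 the value was 0.0566 ± 0.0381 (edgeR, adjusted p = 0.305), and Mrnip overlaps 17.3% of its exon bases on the opposite strand. With the replicate block it was lower with shRela-2 than with shRela-1 (edgeR, adjusted p = 0.0451 [0.0451 to 0.659], or 0.187 without the block). Osgin1, an oxidative stress growth inhibitor, was at 5.01 ± 0.653 CPM with shRela-1, 5.75 ± 0.505 CPM with shRela-2 and 4.76 ± 0.551 CPM with shScr (SD, n = 3 each) and was not called.

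**Figure D2:**
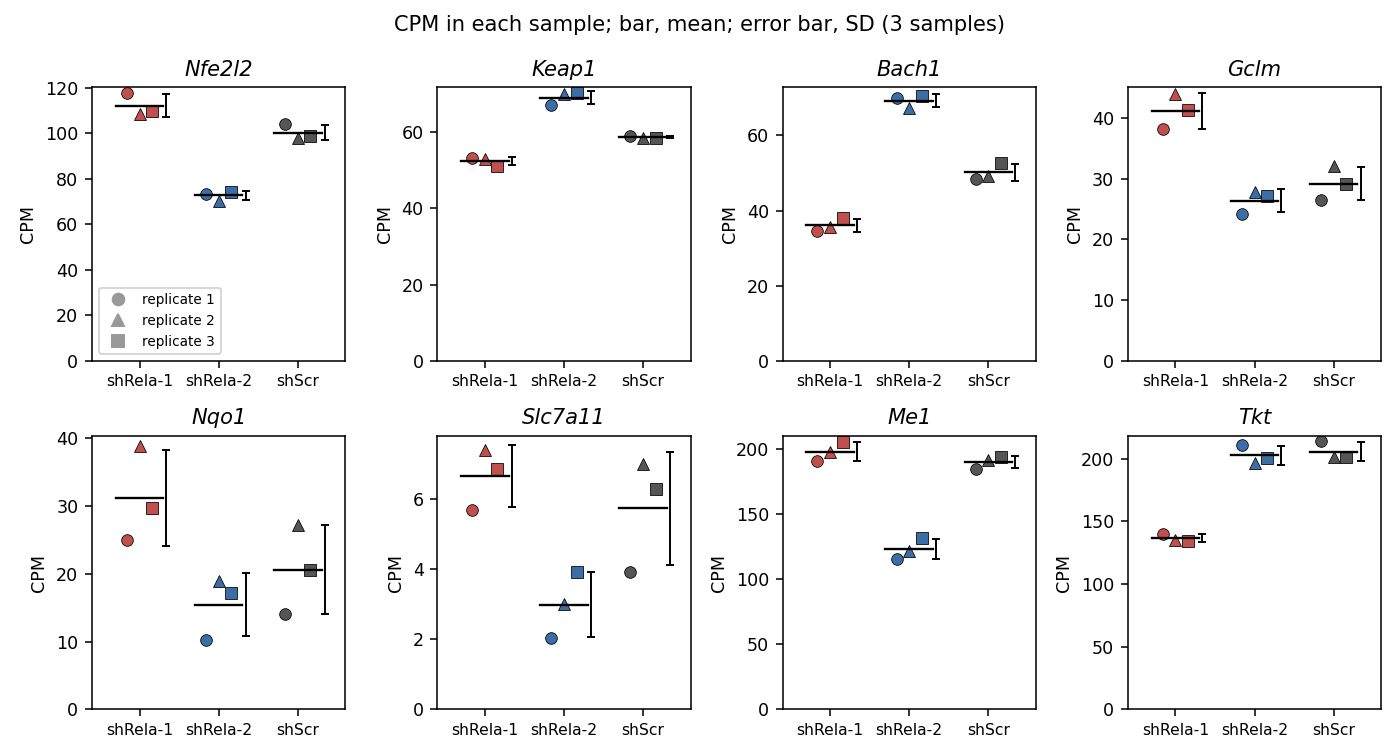
CPM of Nfe2l2, Keap1, Bach1, Gclm, Nqo1, Slc7a11, Me1 and Tkt in every sample, with 3 points shaped by replicate number, a bar at the mean and an error bar of 1 SD for each of shRela-1, shRela-2 and shScr. Nfe2l2 and Keap1 part in opposite directions in the knockdown groups, Me1 is low with shRela-2 and Tkt is low with shRela-1.

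Among other regulators and partners of NRF2, falls outnumbered rises with shRela-1 and rises outnumbered falls with shRela-2. Of 21 such genes tested, 4 rose and 8 fell with shRela-1, beside 24.7% of all genes called. With shRela-2, 7 of the 21 rose and 2 fell, beside 30.9%. Their median was -0.0965 with shRela-1 and 0.0905 with shRela-2. Bach1, the repressor of antioxidant response elements, stood at 34.5, 35.7 and 38.0 CPM with shRela-1, 70.0, 67.2 and 70.4 CPM with shRela-2 and 48.5, 49.3 and 52.6 CPM with shScr. The 3 groups did not overlap, with shRela-2 highest and shRela-1 lowest. It changed by -0.48 ± 0.0464 and 0.47 ± 0.0458, and by 0.94 ± 0.0464 between the hairpins (edgeR, adjusted p = 4.57e-05, 4.31e-05 and 1.48e-07). Gsk3b, a kinase that primes NRF2 for a second, Keap1-independent route of degradation, had 66.6, 67.4 and 72.2 CPM with shRela-1, 109, 118 and 110.5 CPM with shRela-2 and 93.0, 97.3 and 94.6 CPM with shScr. Its order was that of Bach1, with changes of -0.47 ± 0.0440 and 0.24 ± 0.0437 (edgeR, adjusted p = 3.59e-05 and 0.00195). Without shScr replicate 2, 6 genes of this list were called with shRela-1.

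Mafk, a small Maf partner, rose with both hairpins, by 0.36 ± 0.0798 and 0.38 ± 0.0799 (edgeR, adjusted p = 0.00766 and 0.00451). The other small Mafs of the list did not rise. Maff fell with both hairpins, with 29.65 ± 2.51 and 29.46 ± 0.54 CPM against 34.72 ± 2.28 CPM with shScr (SD, n = 3 each). Mafg fell with shRela-1, with 24.28 ± 1.17 against 30.18 ± 1.79 CPM, and was not called with shRela-2 (28.93 ± 0.728 CPM). Dpp3, which competes with NRF2 for Keap1, changed by -0.15 ± 0.0426 under shRela-1, and under shRela-2 by -0.39 ± 0.0427 (edgeR, adjusted p = 0.0247 and 9.1e-05). With shRela-1 its adjusted p was 0.0613 without shRela-1 replicate 2, 0.0945 without shRela-1 replicate 3, 0.0778 without shScr replicate 1, 0.0564 without shScr replicate 2 and 0.0513 without shScr replicate 3 (edgeR). Nfe2l1, the NRF2 relative that controls proteasome genes, changed by -0.16 ± 0.0410 with shRela-1, and its value with shRela-2 was 0.0905 ± 0.0410 (edgeR, adjusted p = 0.0154 and 0.126). With shRela-1 the adjusted p of Nfe2l1 was 0.0538 without shRela-1 replicate 3, 0.06 without shScr replicate 2 and 0.0646 without shScr replicate 3, and with the replicate block it rose with shRela-2 (edgeR, adjusted p = 0.00887 [0.00887 to 0.368]). With that block, 11 genes of the list rose with shRela-2.

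Of the 7 glutathione genes, Gclm, Gss and Gpx4 were called with shRela-1, and Slc7a11, Gss and Gsr with shRela-2. Slc7a11 imports cystine, whose cysteine limits glutathione synthesis, and it fell with shRela-2. It stood at 5.69, 7.41 and 6.88 CPM with shRela-1, 2.05, 3.03 and 3.92 CPM with shRela-2 and 3.93, 6.997 and 6.30 CPM with shScr. Replicate 1 was the lowest sample in every group. All shRela-2 samples lay below the lowest control, the highest of them just below it. The change was -0.94 ± 0.250 with shRela-2 and the value with shRela-1 was 0.21 ± 0.239 (edgeR, adjusted p = 0.0154 and 0.59). With shRela-2 the adjusted p reached 0.0589 without shScr replicate 2 and 0.0556 without shScr replicate 3, and the replicate block gave 2.11e-06 [2.11e-06 to 0.0589] (edgeR). In all 3 same-numbered pairs the shRela-2 sample was below its shScr partner. The gene lies at chr3:49892526-50443614, minus strand.

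Gclm, the modifier subunit of glutamate-cysteine ligase, the enzyme that catalyses the rate-limiting step, rose with shRela-1. It had 38.2, 44.0 and 41.3 CPM with shRela-1, 24.2, 27.8 and 27.1 CPM with shRela-2 and 26.5, 32.0 and 29.1 CPM with shScr. The shRela-1 samples were all above the controls and the shRela-2 samples overlapped them. The rise was 0.49 ± 0.0803, and the value with shRela-2 was -0.15 ± 0.0811 (edgeR, adjusted p = 0.00133 and 0.208, the second 0.0111 [0.0111 to 0.54] with the replicate block). Gclc, the catalytic subunit, had 29.8 ± 0.481 CPM with shRela-1, 28.0 ± 2.17 CPM with shRela-2 and 27.0 ± 0.846 CPM with shScr (SD, n = 3 each). All shRela-1 samples of Gclc were above the controls, by 0.14 ± 0.0589 (edgeR, adjusted p = 0.106, or 0.0237 [0.0237 to 0.23] with the block).

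Gss, which adds the last amino acid of glutathione, fell with both hairpins. Its levels were 50.2, 53.2 and 49.8 CPM with shRela-1, 39.9, 44.3 and 45.4 CPM with shRela-2 and 55.5, 58.9 and 59.4 CPM with shScr, and both knockdown groups lay below every control. It changed by -0.18 ± 0.0522 and -0.42 ± 0.0526 (edgeR, adjusted p = 0.0279 and 0.000193), and by -0.24 ± 0.0526 between the hairpins. The first of these calls had an adjusted p of 0.0786 without shRela-1 replicate 1, 0.0946 without shRela-1 replicate 3, 0.0811 without shScr replicate 2 and 0.0991 without shScr replicate 3 (edgeR). Genes on the opposite strand, Acss2 and the Gss antisense genes, overlap 18.6% of its exon bases. Gsr, which reduces oxidised glutathione with NADPH, had 21.3, 20.2 and 18.9 CPM with shRela-1, 28.6, 24.8 and 25.4 CPM with shRela-2 and 20.5, 21.4 and 23.1 CPM with shScr. It rose with shRela-2 by 0.28 ± 0.0740 and its value with shRela-1 was -0.11 ± 0.0742 (edgeR, adjusted p = 0.0163 and 0.345). The rise had an adjusted p of 0.0598 without shRela-2 replicate 1, 0.0566 without shScr replicate 1 and 0.0551 without shScr replicate 2 (edgeR).

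Of the glutathione peroxidases, Gpx4 was called and Gpx1 was not. Gpx4, which reduces lipid peroxides in membranes, had 267, 255 and 251 CPM with shRela-1, 240.4, 230.5 and 230.0 CPM with shRela-2 and 236, 215 and 224 CPM with shScr. It rose with shRela-1 by 0.20 ± 0.0446, and the value with shRela-2 was 0.0537 ± 0.0446 (edgeR, adjusted p = 0.00937 and 0.413). Of its 50-base words, 34.7% also occur in other genes, mostly the pseudogene Gpx4-ps2, so its counts are uncertain. Gpx1, which removes hydrogen peroxide, was at 244 ± 6.22 CPM with shRela-1, 253 ± 4.21 CPM with shRela-2 and 242 ± 7.99 CPM with shScr (SD, n = 3 each) and was not called. Of 31 other glutathione genes tested, 1 rose and 0 fell with shRela-1, beside 24.7% of all genes called. With shRela-2, 2 of the 31 rose and 3 fell, beside 30.9%. At an unadjusted p under 0.05, edgeR had 2 of them lower with shRela-1, DESeq2 called 2 in all, and with the replicate block 5 rose and 2 fell with shRela-1, and 6 rose and 8 fell with shRela-2. Gpx8, a peroxidase of the endoplasmic reticulum, rose with both hairpins, by 0.19 ± 0.0388 and 0.32 ± 0.0388 (edgeR, adjusted p = 0.00456 and 0.000151). Glrx3, a glutaredoxin, changed by -0.38 ± 0.0969 with shRela-2 (edgeR, adjusted p = 0.0128). Glrx, the cytosolic glutaredoxin, changed by -0.38 ± 0.112 with shRela-2 (edgeR, adjusted p = 0.0242), with 0.0611 without shRela-2 replicate 2, 0.0883 without shRela-2 replicate 3, 0.079 without shScr replicate 1 and 0.0666 without shScr replicate 3. Slc1a4, an amino acid transporter, changed by -0.37 ± 0.118 with shRela-2 (edgeR, adjusted p = 0.0352), with 0.101 without shRela-2 replicate 1, 0.101 without shScr replicate 2 and 0.105 without shScr replicate 3. With shRela-1 its value was 0.29 ± 0.117 (edgeR, adjusted p = 0.0987, or 4.47e-06 [4.47e-06 to 0.264] with the block).

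In the thioredoxin system the cytosolic carrier fell with shRela-2 and the repair enzyme rose with shRela-1. Txn1, thioredoxin itself, had 188, 177 and 177 CPM with shRela-1, 148, 141 and 151 CPM with shRela-2 and 192, 177 and 183 CPM with shScr. The shRela-2 samples were the lowest and the other groups overlapped. The change was -0.33 ± 0.0461 with shRela-2, with -0.0276 ± 0.0460 for shRela-1 (edgeR, adjusted p = 0.00043 and 0.725). Srxn1, sulfiredoxin, which restores overoxidised peroxiredoxins, had 132, 132 and 127 CPM with shRela-1, 102, 97.3 and 102 CPM with shRela-2 and 103, 99.1 and 102 CPM with shScr. Here shRela-1 stood above all others and shRela-2 overlapped the controls. It rose by 0.36 ± 0.0375 with shRela-1, and the value with shRela-2 was -0.0075 ± 0.0376 with a 95% interval of -0.0909 to 0.0759 (edgeR, adjusted p = 6.99e-05 and 0.91).

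Prdx6, a peroxiredoxin that also acts on phospholipids, had 222, 204 and 202 CPM with shRela-1, 174, 168 and 169.5 CPM with shRela-2 and 200.5, 194 and 197 CPM with shScr. It changed by -0.21 ± 0.0435 with shRela-2, and the value with shRela-1 was 0.0861 ± 0.0434 (edgeR, adjusted p = 0.0043 and 0.186, the second 0.026 [0.026 to 0.517] with the replicate block). Prdx1, the main cytosolic peroxiredoxin, was at 501 ± 17.7 CPM with shRela-1, 490.2 ± 26.3 CPM with shRela-2 and 463 ± 25.7 CPM with shScr (SD, n = 3 each). Its values of 0.11 ± 0.0536 and 0.0814 ± 0.0536 were called as rises with the block alone (edgeR, adjusted p = 0.00628 [0.00628 to 0.45] and 0.0425 [0.0425 to 0.691], against 0.158 and 0.294). Txnrd1, the reductase that recharges thioredoxin, was at 273 ± 2.23 CPM with shRela-1, 259.9 ± 1.05 CPM with shRela-2 and 271 ± 7.67 CPM with shScr (SD, n = 3 each) and was not called. With the block Txnrd1 was lower with shRela-2 than with shRela-1, by -0.0685 (edgeR, adjusted p = 0.0424 [0.0424 to 0.582]).

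Other thioredoxin and peroxide genes included larger changes. Of 25 tested, 5 rose and 4 fell with shRela-1, beside 24.7% of all genes called. With shRela-2, 5 of the 25 rose and 7 fell, beside 30.9%. Under the block 9 rose and 8 fell with shRela-1, and without shScr replicate 3 the number called with shRela-1 was 6. Pxdn, a matrix peroxidase that crosslinks collagen IV, had 148, 139 and 147 CPM with shRela-1, 624, 575 and 545 CPM with shRela-2 and 429, 380.2 and 399.8 CPM with shScr. It changed by -1.48 ± 0.0607 and 0.53 ± 0.0594, and no groups overlapped (edgeR, adjusted p = 1.11e-07 and 0.000101). Msrb3, a methionine sulfoxide reductase, changed by -1.14 ± 0.0779 with shRela-2, with -0.11 ± 0.0766 for shRela-1 (edgeR, adjusted p = 4.84e-06 and 0.331, the second 0.0191 [0.0191 to 0.551] with the block). Txnrd3, a testis-rich thioredoxin reductase, changed by -0.66 ± 0.0895 with shRela-2 (edgeR, adjusted p = 0.000331). Sesn2, a stress-induced sestrin, rose with both hairpins, by 0.54 ± 0.0605 and 0.33 ± 0.0606 (edgeR, adjusted p = 0.000122 and 0.00198). Txnip, which binds and inhibits thioredoxin, rose with shRela-1 by 0.43 ± 0.0964 and changed by -0.29 ± 0.0965 with shRela-2 (edgeR, adjusted p = 0.00862 and 0.045). With shRela-2 the adjusted p of Txnip was 0.066 without shRela-1 replicate 3, 0.156 without shRela-2 replicate 2, 0.115 without shRela-2 replicate 3, 0.147 without shScr replicate 1 and 0.101 without shScr replicate 3 (edgeR), and 0.0535 with library totals alone as the scaling.

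NADPH is the reductant that both systems use up. Among the 34, Tkt with shRela-1 and Me1 with shRela-2 had the smallest adjusted p against shScr. Me1, malic enzyme, which makes NADPH from malate, had 191, 197 and 205 CPM with shRela-1, 116, 122 and 131 CPM with shRela-2 and 185, 191 and 194 CPM with shScr. All shRela-2 samples were far below the controls, and the shRela-1 samples overlapped them. The change was -0.63 ± 0.0506 with shRela-2, 0.647 of the shScr level, and the value with shRela-1 was 0.059 ± 0.0502 (edgeR, adjusted p = 1.3e-05 and 0.447). The gene lies at chr9:86581371-86695953, minus strand, and 28.3% of its 50-base words also occur in other genes, mainly Gm7049 and Gm48795. Tkt, transketolase of the non-oxidative pentose phosphate pathway, showed the reverse order. It had 139.9, 135 and 134 CPM with shRela-1, 211, 196 and 200.4 CPM with shRela-2 and 214, 201 and 201 CPM with shScr. All shRela-1 samples were below every other sample, and shRela-2 overlapped the controls. Tkt (chr14:30548359-30574720, plus strand) changed by -0.59 ± 0.0425 with shRela-1, 0.664 of the shScr level, and its value with shRela-2 was -0.0208 ± 0.0423 with a 95% interval of -0.11 to 0.0729 (edgeR, adjusted p = 5.24e-06 and 0.76).

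Taldo1, transaldolase, the partner of Tkt in the same pathway, rose with shRela-1 while Tkt fell. It had 134, 125 and 129.9 CPM with shRela-1, 101, 108 and 118 CPM with shRela-2 and 114, 110.1 and 112 CPM with shScr. The rise was 0.21 ± 0.0547 (edgeR, adjusted p = 0.0185), with an adjusted p of 0.0564 without shRela-1 replicate 1, 0.06 without shScr replicate 2 and 0.0563 without shScr replicate 3. G6pdx, glucose-6-phosphate dehydrogenase, the entry enzyme of the oxidative branch, had 61.9, 60.1 and 54.8 CPM with shRela-1, 52.3, 46.5 and 47.9 CPM with shRela-2 and 58.2, 56.1 and 53.3 CPM with shScr. Its fall with shRela-2 was -0.19 ± 0.0583 (edgeR, adjusted p = 0.0286), with an adjusted p of 0.108 without shRela-2 replicate 2, 0.0875 without shRela-2 replicate 3, 0.0942 without shScr replicate 1 and 0.069 without shScr replicate 2. The opposite-strand gene Ikbkg overlaps 13.6% of its exon bases. Pgd, the next NADPH-making enzyme of that branch, had 189.8 ± 8.84 CPM with shRela-1, 159.9 ± 6.30 CPM with shRela-2 and 172 ± 7.67 CPM with shScr (SD, n = 3 each). Its values of 0.14 ± 0.0496 and -0.10 ± 0.0497 became a rise and a fall with the replicate block (edgeR, adjusted p = 0.000693 [0.000693 to 0.207] and 0.00807 [0.00807 to 0.372], against 0.0605 and 0.145). Idh1, cytosolic isocitrate dehydrogenase, had 92.2 ± 1.78 CPM with shRela-1, 92.9 ± 3.72 CPM with shRela-2 and 95.8 ± 6.98 CPM with shScr (SD, n = 3 each) and was not called.

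Of 18 other NADPH genes tested, 1 rose and 1 fell with shRela-1, beside 24.7% of all genes called. With shRela-2, 3 of the 18 rose and 6 fell, beside 30.9%. Rpia, ribose-5-phosphate isomerase, stood at 7.02, 8.28 and 8.49 CPM with shRela-1, 3.65, 4.96 and 5.09 CPM with shRela-2 and 8.22, 8.73 and 8.87 CPM with shScr, and changed by -0.91 ± 0.130 with shRela-2 (edgeR, adjusted p = 0.000456). Me2, the mitochondrial malic enzyme, changed by -0.46 ± 0.0686 with shRela-2 (edgeR, adjusted p = 0.000637). Me3, another mitochondrial malic enzyme, rose with shRela-1 by 1.13 ± 0.295 (edgeR, adjusted p = 0.0185), with an adjusted p of 0.0697 without shRela-1 replicate 2. Shmt2, of mitochondrial one-carbon metabolism, changed by -0.34 ± 0.0964 with shRela-2 (edgeR, adjusted p = 0.0205), with 0.0575 without shScr replicate 2 and 0.0844 without shScr replicate 3. With the replicate block 5 of this list rose and 3 fell with shRela-1. Without shRela-1 replicate 2 a single gene was called with shRela-1, and without shScr replicate 2 the number called with shRela-2 was 5.

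Among genes of conjugation, quinone reduction and export, Nqo1 showed the widest spread. Nqo1 (chr8:107388225-107403206, minus strand), a quinone reductase and the most used marker of NRF2 activity, had 25.0, 38.8 and 29.6 CPM with shRela-1, 10.2, 18.9 and 17.2 CPM with shRela-2 and 14.1, 27.1 and 20.5 CPM with shScr. Replicate 1 was the lowest and replicate 2 the highest in each group, and each knockdown group overlapped the controls. In all 3 same-numbered pairs the shRela-1 sample was above its shScr partner and the shRela-2 sample below it. Without the block the values of 0.59 ± 0.263 and -0.42 ± 0.268 were not called (edgeR, adjusted p = 0.133 and 0.281). The replicate block turned these into a rise and a fall (edgeR, adjusted p = 3.16e-07 [3.16e-07 to 0.363] and 8.67e-05 [8.67e-05 to 0.707]). The hairpin groups did not overlap each other, and differed by -1.01 ± 0.267 (edgeR, adjusted p = 0.0116).

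Gstm1, a glutathione S-transferase, had 24.6, 28.3 and 23.5 CPM with shRela-1, 15.9, 19.2 and 17.2 CPM with shRela-2 and 18.2, 19.0 and 18.9 CPM with shScr. The shRela-1 samples were above all others, a rise of 0.45 ± 0.0841, and the value with shRela-2 was -0.10 ± 0.0848 (edgeR, adjusted p = 0.00326 and 0.423). Reads of Gstm1 may be shared with close relatives, since 18.9% of its 50-base words occur in other genes such as Gstm3. Mgst1, a membrane-bound transferase, had 22.8, 21.1 and 22.2 CPM with shRela-1, 25.8, 25.4 and 21.7 CPM with shRela-2 and 28.2, 25.7 and 26.5 CPM with shScr. It changed by -0.28 ± 0.0721 with shRela-1, with -0.14 ± 0.0721 for shRela-2 (edgeR, adjusted p = 0.0162 and 0.181). The call with shRela-1 had an adjusted p of 0.0614 without shRela-1 replicate 2 and 0.0539 without shScr replicate 1 (edgeR). Between the hairpins Mgst1 was called as higher with shRela-2 with the block and without shRela-2 replicate 3 (edgeR, adjusted p = 0.0444 [0.0224 to 0.362] and 0.0224, against 0.142 with neither). Gstp1 had 65.1 ± 3.94 CPM with shRela-1, 62.4 ± 4.56 CPM with shRela-2 and 60.1 ± 4.82 CPM with shScr (SD, n = 3 each), and its value of 0.12 ± 0.0698 with shRela-1 was called with the block alone (edgeR, adjusted p = 0.0214 [0.0214 to 0.549], against 0.267). Of its 50-base words, 33.7% also occur in other genes, mainly Gstp2. Gsta4, which conjugates the lipid peroxidation product hydroxynonenal, had 9.79 ± 1.35 CPM with shRela-1, 9.93 ± 1.48 CPM with shRela-2 and 10.1 ± 1.64 CPM with shScr (SD, n = 3 each) and was not called.

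Ugdh, which makes UDP-glucuronic acid, had 131, 131 and 121 CPM with shRela-1, 96.9, 105 and 96.4 CPM with shRela-2 and 129.7, 129.5 and 116 CPM with shScr. The shRela-2 samples were below all others, by -0.33 ± 0.0567, and the value with shRela-1 was 0.0295 ± 0.0565 (edgeR, adjusted p = 0.00147 and 0.763). Ephx1, microsomal epoxide hydrolase, had 282 ± 29.6 CPM with shRela-1, 284 ± 33.5 CPM with shRela-2 and 254 ± 24.3 CPM with shScr (SD, n = 3 each). It was called as rising with both hairpins with the block alone (edgeR, adjusted p = 0.000185 [0.000185 to 0.722] and 6.4e-05 [6.4e-05 to 0.711], against 0.333 and 0.27), by 0.15 and 0.16 without it.

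The export pumps went separate ways. Abcc1, which exports glutathione conjugates, had 215, 194 and 194 CPM with shRela-1, 175, 155 and 156 CPM with shRela-2 and 181, 164 and 174 CPM with shScr. It rose with shRela-1 by 0.22 ± 0.0621 (edgeR, adjusted p = 0.0273), with an adjusted p of 0.0927 without shRela-1 replicate 1, 0.1 without shScr replicate 2 and 0.0712 without shScr replicate 3. With shRela-2 its value was -0.0908 ± 0.0622 (edgeR, adjusted p = 0.313, or 0.0157 [0.0157 to 0.604] with the block). Abcc4, an exporter of cyclic nucleotides and organic anions, had 12.95, 14.1 and 14.96 CPM with shRela-1, 16.8, 17.8 and 16.9 CPM with shRela-2 and 12.5, 14.02 and 13.02 CPM with shScr. The shRela-2 samples were above all others, a rise of 0.38 ± 0.0727, and the value with shRela-1 was 0.0857 ± 0.0728 (edgeR, adjusted p = 0.00275 and 0.446).

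Of the 3 genes of superoxide and peroxide removal, Sod1 was called with shRela-2. Sod1, the cytosolic superoxide dismutase, had 112, 119 and 112 CPM with shRela-1, 142, 141 and 135 CPM with shRela-2 and 123, 118 and 119 CPM with shScr. All shRela-2 samples were above the others, a rise of 0.22 ± 0.0398, and the value with shRela-1 was -0.07 ± 0.0398 (edgeR, adjusted p = 0.00214 and 0.241). Sod2, the mitochondrial superoxide dismutase and a textbook target of NF-kB, had 41.8 ± 2.22 CPM with shRela-1, 44.8 ± 0.982 CPM with shRela-2 and 45.7 ± 2.18 CPM with shScr (SD, n = 3 each). Its values of -0.13 ± 0.0492 and -0.0299 ± 0.0493 had 95% intervals of -0.24 to -0.0219 and -0.14 to 0.0794 and were not called (edgeR, adjusted p = 0.0792 and 0.701). Under the block Sod2 fell with shRela-1 and was higher with shRela-2 than with shRela-1 (edgeR, adjusted p = 0.0137 [0.0137 to 0.242] and 0.0432 [0.0432 to 0.363]). The fall of Sod2 was also called without shRela-1 replicate 2 and without shScr replicate 1 (edgeR, adjusted p = 0.0307 and 0.0392), and the difference between hairpins with library totals alone and without shRela-1 replicate 2 (edgeR, adjusted p = 0.0474 and 0.0447). Of its 50-base words, 21% also occur in other genes. Cat, catalase, had 82.5 ± 3.57 CPM with shRela-1, 80.3 ± 3.04 CPM with shRela-2 and 81.8 ± 7.52 CPM with shScr (SD, n = 3 each), with 95% intervals of -0.13 to 0.15 and -0.17 to 0.11 around its log2 fold changes.

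**Figure D3:**
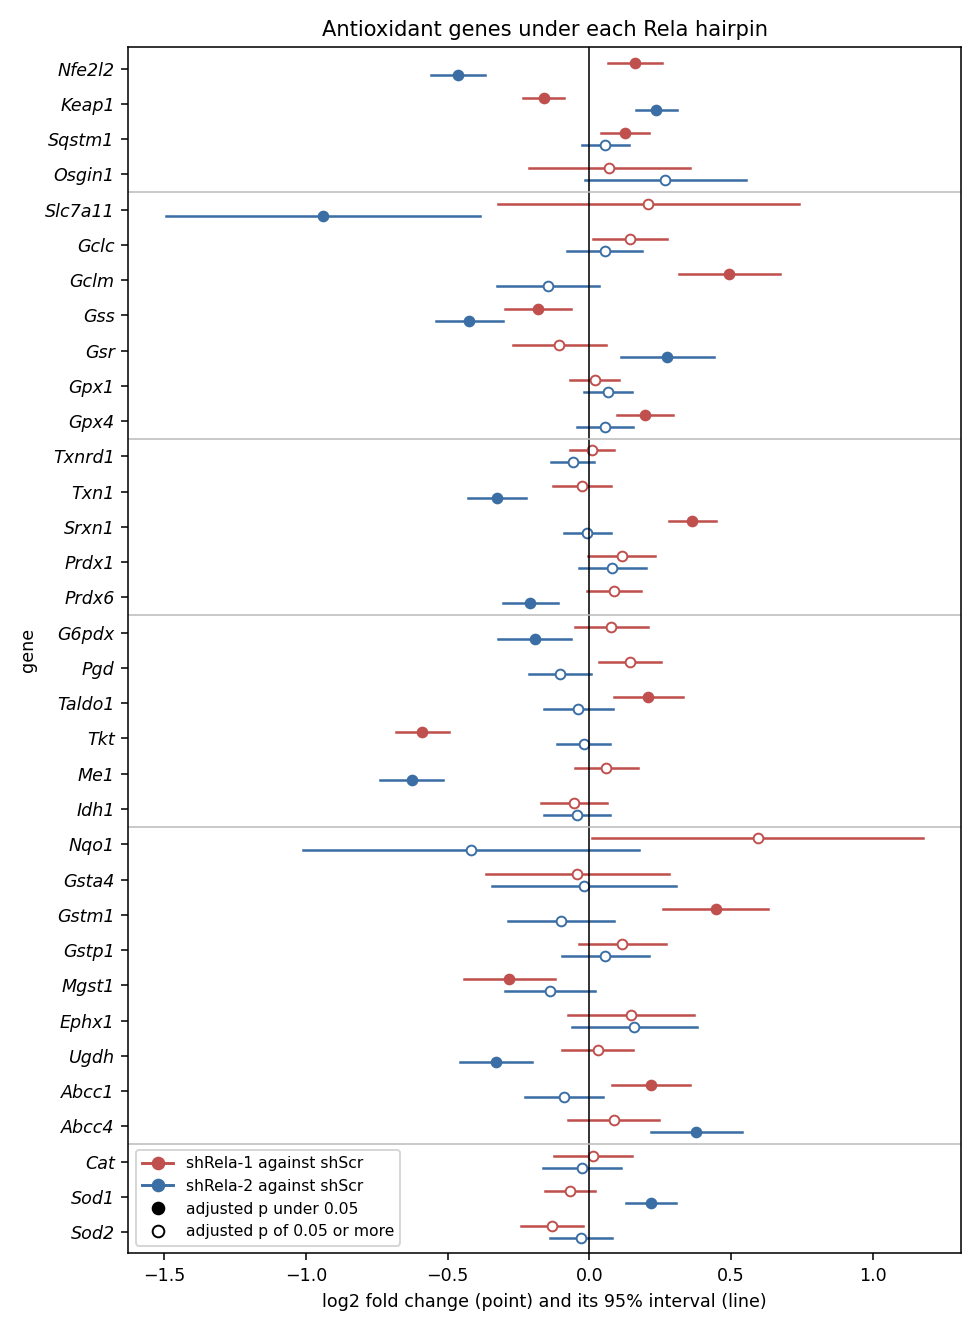
Log2 fold change of each of the 34 genes against shScr with its 95% interval, for shRela-1 and shRela-2, with filled points where the adjusted p was under 0.05 (edgeR). The points of Nfe2l2 and Keap1 lie on opposite sides of 0 for the 2 hairpins, those of Gss on the same side.

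Set directly against each other, the hairpins differed in most of these genes. With shRela-2 relative to shRela-1, 16 of the 34 fell and 5 rose, or 61.8%, beside 39.9% of all genes (19.9% fell and 20.0% rose). The hairpin groups did not overlap for 22 of the 34, 5 higher and 17 lower with shRela-2, beside 50.1% of all genes (25.1% higher and 25.0% lower). The median of the 34 was -0.0794, beside 0.0045 for all genes. The lowest value was that of Slc7a11, -1.15 ± 0.249, followed by Nqo1, Me1 at -0.69 ± 0.0506, Gclm at -0.64 ± 0.0808, Nfe2l2, and Gstm1 at -0.55 ± 0.0844. Smaller differences of the same sign were found for Srxn1, Ugdh, Abcc1, Txn1, Prdx6, G6pdx, Taldo1, Pgd, Gss and Gpx4. Tkt, Keap1, Gsr, Abcc4 and Sod1 were higher with shRela-2, Tkt by 0.57 ± 0.0425. The difference of Gpx4, -0.14 ± 0.0446, had the highest adjusted p among the calls (0.0275, edgeR), with 0.0903 without shRela-1 replicate 1, 0.0528 without shRela-1 replicate 2, 0.0837 without shRela-2 replicate 2 and 0.0827 without shRela-2 replicate 3, and 0.118 with library totals alone as the scaling. Rela itself differed between the hairpins by 0.0256 ± 0.0506, with a 95% interval of -0.0867 to 0.14.

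Hmox1, a gene that NRF2 is known to switch on and Bach1 to repress, changed with the same signs as Nfe2l2. It encodes heme oxygenase, and had 524, 554 and 456 CPM with shRela-1, 109, 116 and 106 CPM with shRela-2 and 182, 195 and 170.0 CPM with shScr. The 3 groups did not overlap, and the change of -2.21 ± 0.0771 between hairpins was larger than that of any of the 34 (edgeR, adjusted p = 2.04e-08). Against shScr it rose by 1.48 ± 0.0752 with shRela-1 and changed by -0.73 ± 0.0745 with shRela-2 (edgeR, adjusted p = 4.16e-07 and 5.54e-05). Ftl1, the ferritin light chain, rose with both hairpins, by 0.48 ± 0.0458 and 0.22 ± 0.0458 (edgeR, adjusted p = 3.96e-05 and 0.00386). Of 27 such genes tested, 7 rose and 1 fell with shRela-1, beside 24.7% of all genes called. With shRela-2, 3 of the 27 rose and 6 fell, beside 30.9%. The block called 11 rises and 5 falls with shRela-1. Their median was 0.1731 with shRela-1 and -0.034 with shRela-2. Abcb6, a porphyrin transporter, rose with shRela-2 by 0.77 ± 0.113, with 0.22 ± 0.114 for shRela-1 (edgeR, adjusted p = 0.000588 and 0.205, the second 0.0362 [0.0362 to 0.512] with the block). Slc6a9, a glycine transporter, changed by -0.66 ± 0.164 with shRela-2 (edgeR, adjusted p = 0.011). Ugt1a6a, a glucuronosyltransferase that uses the product of Ugdh, changed by -0.67 ± 0.213 with shRela-2 (edgeR, adjusted p = 0.0356). That call had an adjusted p of 0.105 without shRela-2 replicate 1, 0.0904 without shRela-2 replicate 3 and 0.128 without shScr replicate 2 and of 0.0566 when the 2 groups alone were fitted, and with the block Ugt1a6a rose with shRela-1 (edgeR, adjusted p = 0.0361 [0.0361 to 0.463]).

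Of 16 genes tested from a list of oxidant sources and their partners, 3 rose and 0 fell with shRela-1, beside 24.7% of all genes called. With shRela-2, 1 of the 16 rose and 2 fell, beside 30.9%. At an unadjusted p under 0.05, edgeR had 1 lower with shRela-1, DESeq2 called 4 in all, and with the replicate block 4 rose and 1 fell. Maoa, monoamine oxidase A, which releases hydrogen peroxide, had 140.4, 146 and 144 CPM with shRela-1, 43.6, 54.3 and 54.4 CPM with shRela-2 and 66.7, 79.0 and 67.6 CPM with shScr. It rose by 1.01 ± 0.0863 with shRela-1 and changed by -0.49 ± 0.0870 with shRela-2 (edgeR, adjusted p = 1.77e-05 and 0.00184). Xdh, xanthine dehydrogenase, changed by 0.41 ± 0.112 and -0.47 ± 0.114 (edgeR, adjusted p = 0.0225 and 0.00951), and the first had an adjusted p of 0.0749 without shRela-1 replicate 1, 0.0679 without shRela-1 replicate 3, 0.0832 without shScr replicate 2 and 0.0675 without shScr replicate 3. Ero1l, the oxidase of the endoplasmic reticulum, rose with shRela-1 by 0.72 ± 0.0807 (edgeR, adjusted p = 0.000119). P4hb, the disulfide isomerase that Ero1l oxidises, rose with shRela-2 by 0.23 ± 0.0676 (edgeR, adjusted p = 0.0248), with 0.0901 without shRela-2 replicate 1, 0.0892 without shScr replicate 2 and 0.0886 without shScr replicate 3. With shRela-1 the value of P4hb was -0.13 ± 0.0676 (edgeR, adjusted p = 0.215, or 0.00165 [0.00165 to 0.516] with the block).

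Levels of different genes are compared per kilobase of exon. In shScr the highest of the 34 were Txn1 at 175 ± 7.28 CPM per kilobase, Gpx1 at 168 ± 5.54 and Prdx1 at 152 ± 8.44 (mean ± SD, n = 3). Sqstm1, Gpx4 and Ephx1 came next. Nfe2l2 ranked 18 at 26.4 ± 0.881 CPM per kilobase, and Keap1 ranked 24 at 12.5 ± 0.0542. The lowest were Slc7a11 at 0.412 ± 0.116, Osgin1 at 1.78 ± 0.206 and Abcc4 at 2.06 ± 0.121 CPM per kilobase. In this order, 17 neighbouring pairs had overlapping shScr ranges and 16 did not. The shScr ranges of Txn1 and Gpx1 overlapped, while with shRela-2 Txn1 stood at 139.7 ± 5.24 and Gpx1 at 175 ± 2.91 CPM per kilobase. Exon lengths are those of the union of all annotated exons, so levels of genes with long rarely used exons, such as Slc7a11, may be understated.

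**Figure D4:**
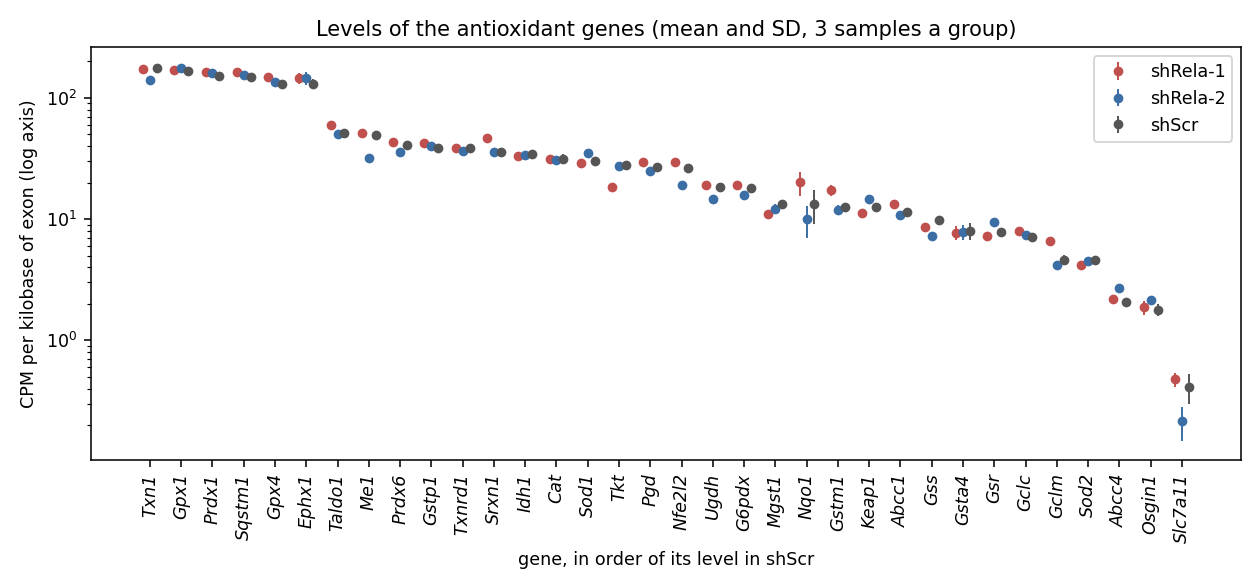
Level of each of the 34 genes in CPM per kilobase of exon (log axis), as the mean and SD of 3 samples for shRela-1, shRela-2 and shScr, ordered by the shScr level. Txn1, Gpx1 and Prdx1 are at the top and Slc7a11 at the bottom.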

How the data were processed

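RNA was sequenced from 9 samples in 3 groups, and the library kit named in the labels' protocols, TruSeq RNA v2, does not mark strand. The authors deposited raw, whole-number counts for each gene symbol, 1 column per sample with no normalization. Per the submitters' processing notes, the tools were featureCounts 1.4.6, Subread, Bowtie2 2.2.6 and TopHat2 2.0.14 and the build was mm10, with their roles not given in the sources used here.

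Counts of 49774667 to 67963506 per sample entered edgeR 4.0.16 (R 4.3.3): filterByExpr, TMM scaling, 1 mean per group over all 9 samples, glmQLFit and glmQLFTest (two-sided), with Benjamini-Hochberg adjustment over 15369 genes and a threshold of 0.05. The test was checked on simulated counts. CPM are counts per 1000000 of the TMM-scaled total of the tested genes. The alternatives were DESeq2 1.42.0, other scalings and filters, the 2 groups compared alone, a replicate block and leaving out each sample.

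Replicate numbers come from the titles. Deviations from group means correlated positively in all 9 same-numbered pairs (0.189 to 0.415) and at -0.306 to 0.0459 in the 18 others. The numbers were therefore taken to pair the samples in the replicate block. The main fit did not use this pairing, and calls are those of the main fit unless the block is named.

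The genes and lists were chosen with earlier results of these data known. All 34 are named, with values in every sample for Nfe2l2, Keap1 and the members called in a comparison that rank among the 18 largest changes against shScr, and for some others chosen after their values were seen. Of each further list, up to 4 called genes of largest change against shScr and average log2 CPM no lower than 1 are named, with Rela, Hmox1, Ftl1, Bach1, Nfe2l1 and Txnip in any case. Maff and Mafg were added as the other small Mafs of their list after their values were seen. Exon lengths, overlaps and shared 50-base words come from GENCODE M21 on GRCm38, the same assembly as mm10, and promoter windows from RefSeq (GRCm38.p6).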

Additional observations from a re-analysis of the deposited data

Results flagged for a closer look

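The effects of the 2 hairpins on 21 of the 34 genes differed by the test of the difference itself, shRela-2 minus shRela-1 (edgeR's quasi-likelihood test, Benjamini-Hochberg adjusted p under 0.05), beside 39.9% of all genes. The log2 differences below 0, with shRela-2 lower, were those of Slc7a11 (-1.15), Nqo1 (-1.01), Me1 (-0.69), Gclm (-0.64), Nfe2l2 (-0.63), Gstm1 (-0.55), Srxn1 (-0.37) and Ugdh (-0.36). Smaller ones were those of Abcc1 (-0.31), Txn1 (-0.30), Prdx6 (-0.30), G6pdx (-0.27), Taldo1 (-0.25), Pgd (-0.25), Gss (-0.24) and Gpx4 (-0.14). The differences above 0 were those of Tkt (0.57), Keap1 (0.40), Gsr (0.38), Abcc4 (0.29) and Sod1 (0.29). The samples of the 2 hairpins did not overlap for any of the 21. That adds little, since the 21 were chosen by the same comparison, and it held for 50.1% of all genes. Rela, the target, differed by 0.0256 ± 0.0506 (SE), with a 95% interval of -0.0867 to 0.14.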

How the results depend on the processing

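Log2 fold changes, adjusted p-values and counts of calls of the 34 genes and of the named genes of the pathway lists were recomputed with DESeq2, with RLE factors, with library totals alone, without the low-count filter, with the 2 groups of a comparison alone, with the replicate block and without each sample in turn. Without single samples the number of the 34 genes called ran from 7 to 12 with shRela-1 (risen 4 to 8), 9 to 12 with shRela-2 and 20 to 21 between the hairpins, those called the same way with both from 0 to 1 and opposite ways from 1 to 2. The lowest count with shRela-1 came without shRela-1 replicate 1, shScr replicate 2 or shScr replicate 3. The number of all genes called ran from 2745 to 3824 with shRela-1, 3766 to 4757 with shRela-2 and 5280 to 6152 between the hairpins. Other regulators ranged over 6 to 12 with shRela-1 and 8 to 13 between the hairpins (8 without shRela-2 replicate 1), other glutathione genes over 1 to 2, 3 to 6 and 5 to 9 in the 3 comparisons, and other NADPH genes over 1 to 3 (shRela-1) or 5 to 8 (shRela-2).

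With the replicate block 20 of the 34 were called with shRela-1 (15 risen) and 18 with shRela-2 (6 risen). Of the 34, 3 were called the same way with both hairpins and 7 opposite ways. Of all 15369 genes, the block called 6034 with shRela-1 and 6830 with shRela-2. How many of all genes it called the same way or opposite ways was not computed. The block called 16 other known NRF2 targets, 17 thioredoxin, 8 NADPH, 5 oxidant and 7 glutathione genes with shRela-1, and 14 and 17 glutathione genes with shRela-2 and between the hairpins. It took away no call among the 34, and its changes to their calls are given above. Counts in the lists also changed. With shRela-2 other known NRF2 targets had 4 rises and 9 falls, and other NADPH genes 4 and 9. Other thioredoxin and peroxide genes had 8 rises and 8 falls with shRela-2. Other regulators had 5 rises and 9 falls with shRela-1. Of the epithelial markers, 2 rose with shRela-1 and 3 were lower with shRela-2 than with shRela-1. DESeq2 called 2 and 8 other glutathione genes with shRela-1 and shRela-2, library totals alone 2 with shRela-1. DESeq2 also called Pgd as risen with shRela-1 (adjusted p = 0.0337), as did edgeR without shScr replicate 1 (0.0461), and Sqstm1 with shRela-1 was not called with library totals alone (edgeR, adjusted p = 0.11) or in the fit of 2 groups (edgeR, adjusted p = 0.0681). Library totals alone turned the sign of uncalled values, with shRela-1 to -0.007 for Gpx1, -0.017 for Txnrd1, -0.013 for Cat and -0.015 for Glrx3, with shRela-2 to 0.009 for Srxn1, and between the hairpins to 0.011 for Prdx1 and 0.003 for Cat. Values that changed sign without a sample were uncalled, and ranged with shRela-1 -0.042 to 0.138 for Osgin1, -0.007 to 0.039 for Gpx1, -0.033 to 0.09 for Cat, -0.148 to 0.1 for Gsta4, -0.013 to 0.027 for Txnrd1, -0.057 to 0.005 for Txn1, -0.021 to 0.069 for Ugdh, -0.137 to 0.075 for Slc6a9, -0.064 to 0.051 for Glrx3 and -0.036 to 0.091 for Shmt2; with shRela-2 -0.101 to 0.011 for Taldo1, -0.146 to 0.118 for Gsta4, -0.011 to 0.098 for Gclc, -0.027 to 0.017 for Srxn1, -0.051 to 0.01 for Tkt, -0.098 to 0.011 for Idh1 and -0.073 to 0.048 for Cat; between the hairpins -0.088 to 0.094 for Ephx1, -0.022 to 0.029 for Idh1, -0.103 to 0.125 for Gsta4, -0.076 to 0 for Prdx1, -0.037 to 0.079 for Mafk and -0.02 to 0.052 for Rela. The causes were not tested.

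Counting error is small at this depth, 3 samples a group limit the precision, and any batch that goes with the shScr tag cannot be told apart from the hairpins. Low counts were even more often than odd (17389 against 8063 values up to 10), and the reason was not tested.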
